A study of Mus musculus with 12 samples.

Results

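The cytochrome P450 genes of families 1 to 3 were followed in livers of C57BL/6J mice fed chow or a diet for nonalcoholic steatohepatitis (NASH), in which the liver gathers fat and becomes inflamed. Members were all genes of the count table whose mouse symbol is Cyp1, Cyp2 or Cyp3, a subfamily letter and a number, which gave 52 of 24983 genes in 15 subfamilies, all of them protein coding. The series asked what nitro-fatty acids do to fat storage and scarring in such livers. Each of the 4 groups held 3 mice, with 1 RNA-seq library per mouse. Chow mice were fed a chow diet, also for 24 weeks, and the labels mention no pump for them. The other mice ate for 24 weeks a diet with 40% of its calories from fat and with added trans-fat, fructose and cholesterol. An osmotic minipump under their skin released the solvent polyethylene glycol (vehicle), the common monounsaturated fatty acid oleic acid (OA), or its nitrated form nitro-oleic acid (OA-NO2). Both fatty acids were given at 5 mg/kg/day. The effects of diet and pump cannot be told apart, and the sex of the mice is not given in the labels.

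P450 enzymes of these families are haem proteins of the endoplasmic reticulum that insert oxygen into drugs, pollutants, steroids, bile acids and fatty acids, with electrons handed over by the reductase Por and by cytochrome b5 (Cyb5a). In liver they are made mostly by hepatocytes, many of them in the cells around the central vein. Several are switched on by ligand-activated receptors, Cyp1a genes by the aryl hydrocarbon receptor, Cyp2b genes by CAR (Nr1i3) and Cyp3a genes by PXR (Nr1i2), and mouse Cyp2a, Cyp2b, Cyp2c, Cyp2d and Cyp3a genes include forms that differ between the sexes through the pulse pattern of growth hormone.

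Many members are recent copies of a neighbour, which bears on how far their reads can be told apart. Cyp2a4 (steroid 15-alpha-hydroxylase) and Cyp2a5 (coumarin 7-hydroxylase, which also oxidises nicotine) lie on chromosome 7, and their coding sequences are 98.5% identical. Of all 76-base windows of the coding sequence, the length of a read, 23.9% of those of Cyp2a4 and 32.9% of those of Cyp2a5 also occur in another gene. Their promoters are shown because both genes have nearly the same one and yet very different levels. The stretches are chr7:26307042-26307191 and chr7:26835188-26835337 (GRCm38.p6, plus strand, RefSeq), 150 bases each that end just before or 2 bases before the start site, with the 3 bases that differ in capitals.
Cyp2a4: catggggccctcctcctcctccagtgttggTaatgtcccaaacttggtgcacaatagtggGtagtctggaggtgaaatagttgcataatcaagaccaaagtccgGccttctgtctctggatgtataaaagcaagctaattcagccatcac
Cyp2a5: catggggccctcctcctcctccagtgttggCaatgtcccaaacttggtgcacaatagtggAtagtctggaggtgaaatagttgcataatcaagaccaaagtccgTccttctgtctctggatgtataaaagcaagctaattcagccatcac
Over 300 bases the promoters of this pair were 97.7% identical.

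In the Cyp2c cluster on chromosome 19, shared windows made up 61.2% of the coding sequence of Cyp2c40, 48.0% of Cyp2c69, 37.5% of Cyp2c67, 32.0% of Cyp2c68 and 19.7% of Cyp2c50. They were 224 of 1398 windows in Cyp2c54 and 196 of 1398 in Cyp2c37. Shares were 28.5% for Cyp2d10, 17.8% for Cyp2d9 and 5.5% for Cyp3a11. No shared window was found for Cyp1b1, Cyp2c23, Cyp2c55, Cyp2c70, Cyp2e1, Cyp2f2, Cyp2j5 or Cyp3a13. How reads that map to several places were counted is not given in the sources used here, so the values of members with shared windows are uncertain. The promoters of Cyp2c69 and Cyp2c68 are shown because these near copies had very different levels. The stretches are chr19:39886770-39886919 and chr19:39741105-39741254 (GRCm38.p6, minus strand, RefSeq), with bases that differ from the other in capitals, 12 in each.
Cyp2c69: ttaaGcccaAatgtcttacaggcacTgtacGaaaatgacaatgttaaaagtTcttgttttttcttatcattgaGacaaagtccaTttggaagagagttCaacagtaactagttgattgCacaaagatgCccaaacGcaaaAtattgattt
Cyp2c68: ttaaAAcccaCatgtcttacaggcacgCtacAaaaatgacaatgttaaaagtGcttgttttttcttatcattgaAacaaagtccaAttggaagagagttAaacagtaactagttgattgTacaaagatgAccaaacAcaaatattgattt
Over 300 bases these promoters were 91.0% identical. A RefSeq promoter was found for 45 members (47 promoters). The letters TTCNNNGAA, a STAT5 motif, occurred on either strand in 1 of the 47, against 8.3% of all 32851 promoters. The nuclear receptor half-site AGGTCA occurred in 18 of the 47 and in 16.3% of all. The AHR core GCGTG occurred in 6 of the 47 and in 32.4% of all, the variant half-site AGTTCA in 5 of the 47 and 4597 of all 32851, and TATAAA in 25 of the 47 and 13.6% of all. A match describes letters in a window and does not show a binding site.

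Total counts ran from 8462590 in chow replicate 1 to 20613777 in vehicle replicate 3, and the next lowest was 15972613. Levels are given as CPM, the usual depth-normalised counts, on library totals scaled by the trimmed mean of M values (TMM). The TMM factors were 0.758 to 0.832 in chow and 1.13 to 1.18 with vehicle. On the first principal component of all tested genes (46.4% of the variance), OA replicate 3 lay at -13.5, between the chow mice (-71.9 to -44.7) and the other OA mice (49.6 and 40.0), and near the OA-NO2 mice (10.3, -26.8 and -12.2). It was the OA library nearest to the chow mean for 18 of the 21 members that differed between vehicle and chow. The numbers of calls that use OA, and some values of single members, are therefore also given without it. Means, sums, medians and intervals that use OA include it. Of the 7 hepatocyte markers all were present in every library, with a summed level of 130871 to 158711 CPM in chow and 54038 to 66317 CPM with vehicle.

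Of the 52 members, 41 had enough counts to be tested, of which 30 exceeded the cutoff of 0.573 CPM in every library. The other 11 (Cyp2b13, Cyp2b19, Cyp2c65, Cyp2d11, Cyp2d34, Cyp2j11, Cyp2j8, Cyp2s1, Cyp2t4, Cyp3a16 and Cyp3a44) had 3 to 77 reads in all and never exceeded 1.61 CPM. Among the tested members, 9 passed the cutoff in all mice of 1 to 3 groups only and 2 in all mice of no group. The 9 were Cyp1a1, Cyp1b1, Cyp2a4, Cyp2b10, Cyp2b9, Cyp2c40, Cyp2c55, Cyp2d12 and Cyp2g1, and the 2 were Cyp2c69 and Cyp3a57. A call of such a member carries less weight where it was tested only through the group that was higher. A gene was called when the adjusted p of edgeR's quasi-likelihood test, over 14469 genes, was under 0.05.

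Cyp2e1, which oxidises ethanol and small solvents, made up more of the family's RNA than any other member. Per kilobase of exon its mean level was 6425 CPM in chow and 3983 CPM with vehicle. It was 5909 CPM in OA-NO2 mice and 4971 CPM in OA mice. The next highest level per kilobase in chow was that of Cyp2d26, at 605 CPM, and then that of Cyp2a5, at 473 CPM. With vehicle the second place was taken by Cyp3a11, at 835 CPM per kilobase against 273 in chow. Cyp2e1 carried 50.9% ± 2.4 (SD, n = 3) of the family's CPM in chow and 44.2% ± 1.5 with vehicle, while Cyp3a11 carried 4.95% ± 1.79 and 21.9% ± 6.1.

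The summed level of all 52 members was 27268 ± 3651 CPM (SD, n = 3) for chow and 19472 ± 3764 for vehicle mice, and 22779.7 ± 6683 for OA and 25310.0 ± 3618 for OA-NO2 mice. As a plain share of all counts, without TMM scaling, the order differed: 2.18% ± 0.21 for chow, 2.24% ± 0.45 for vehicle, 2.42% ± 0.43 for OA and 2.52% ± 0.24 for OA-NO2. The direction of the family's total therefore turned with the scaling. Without Cyp2e1 and Cyp3a11 the sum ran from 10514 to 13037 CPM in chow and from 4824 to 8084 CPM with vehicle, ranges that did not overlap. As a plain share of counts the means were 0.962% ± 0.092 and 0.763% ± 0.187. There the ranges overlapped, at 0.860% to 1.04% in chow and 0.554% to 0.915% with vehicle. In whole liver, fewer cells of a type and less RNA per cell cannot be told apart.

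**Figure D1:**
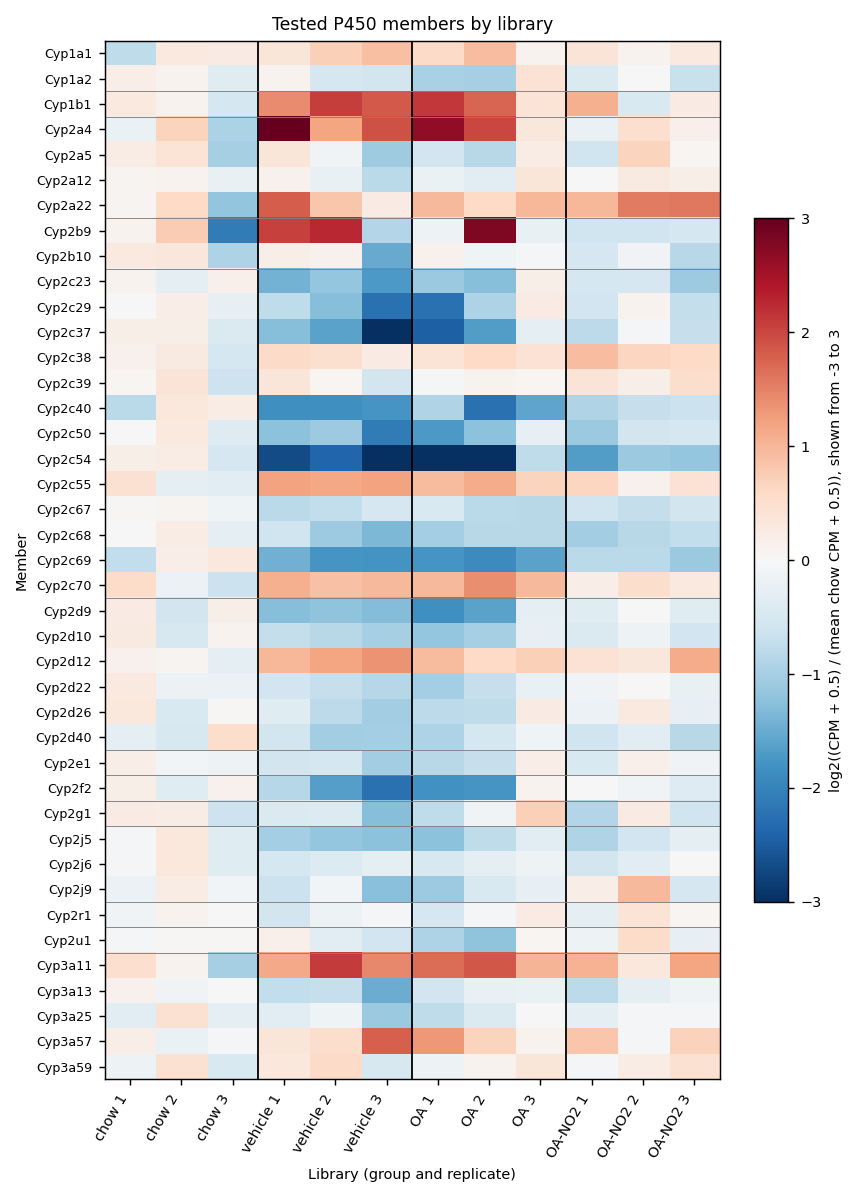
Each row is a tested member, grouped by subfamily, and each column a library; the colour is the log2 ratio of CPM to the mean of the chow mice, with 0.5 CPM added to both and the scale ending at -3 and 3. Several Cyp2c rows are blue with vehicle and in OA replicates 1 and 2 and pale in OA replicate 3, while Cyp3a11, Cyp2a4 and Cyp1b1 are red with vehicle.

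Vehicle-treated mice on the NASH diet were first compared with chow mice, to see how the family differed with diet and pump together. With vehicle, 6 members were called higher, among them Cyp3a11, and 15 lower, most of them Cyp2c and Cyp2d genes. Of the 6, Cyp2a4, Cyp1b1, Cyp2c55 and Cyp2d12 did not pass the cutoff in all chow mice. They were tested through mice where they were higher, so their calls carry less weight. The mean of Cyp3a11 was 3.06-fold that in chow, and that of Cyp2c54 was 7.45-fold lower. Of all tested genes, 11.1% were called higher and 8.16% lower, against 6 and 15 of the 41 members. The median log2 fold change was -0.45 over the members, also with the 2 members of 4 or fewer reads in a group at their bound, and -0.01 over all tested genes. With library size alone as the scaling, which put the median of all genes at 0.51, 10 members were called higher and 7 lower. Without vehicle replicate 3, 7 were called higher and 6 lower. That library held 14.25% mitochondrial reads, against 6.63% and 7.22% in the other vehicle mice, and differed from them by a chi-square per degree of freedom of 113.8 and 93.6, against 27.5 between those mice. The chow mice held 14.28%, 10.68% and 14.46% mitochondrial reads, a range that includes vehicle replicate 3 and lies above the other vehicle mice.

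Cyp3a11 is the main mouse Cyp3a enzyme, a broad drug and steroid oxidase and a PXR target. It stood at 1985, 1484 and 701 CPM in the chow mice and 3076, 5912 and 3766 with vehicle. OA mice had 4407, 5065 and 2809 CPM and OA-NO2 mice 2865, 1734 and 3136 CPM. All vehicle mice were above all chow mice, and OA-NO2 replicate 2 was the lowest mouse on the NASH diet. Against chow the vehicle level was higher by 1.61 ± 0.38 (log2, SE, edgeR adjusted p = 0.0133), a call lost without vehicle replicate 2. Cyp3a13, another Cyp3a gene that lies apart from the main cluster on chromosome 5, went the other way: its 409 to 478 CPM in chow stood above the 156 to 273 CPM with vehicle (-0.93 ± 0.23, edgeR adjusted p = 0.0163). That call was lost with library size alone (-0.40) and without chow replicate 1 or vehicle replicate 3.

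Cyp2a4 was low in every mouse. It read 1.09, 2.41 and 0.45 CPM in chow and 17.9, 3.62 and 6.30 with vehicle. Levels were 10.96, 6.77 and 1.81 CPM with OA and 1.08, 2.07 and 1.51 with OA-NO2. The chow and vehicle mice did not overlap, and the OA-NO2 mice all lay below the vehicle mice. The vehicle level was higher by 2.79 ± 0.74 on the log2 scale (edgeR adjusted p = 0.0214), which lost its call without chow replicate 1, chow replicate 3 or vehicle replicate 1. Cyp2a4 did not pass the cutoff in all chow mice and was tested through groups where it was higher, so its call carries less weight. Its neighbour Cyp2a5, with the nearly identical promoter, stood at 1139, 1313 and 488 CPM in chow and 1257, 916 and 467 with vehicle. With OA its levels were 653, 552 and 1150 CPM, and with OA-NO2 645, 1554 and 1024. These groups overlapped throughout, and Cyp2a5 was not called (-0.15 ± 0.44, edgeR adjusted p = 0.832). In the vehicle mice the highest levels of both genes were in replicate 1, while in the OA mice replicate 3 had the highest Cyp2a5 and the lowest Cyp2a4. The part of misassigned reads in the result was not tested.

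Cyp1b1 oxidises oestradiol and procarcinogens and is known mainly from cells other than hepatocytes. It read 1.40, 1.17 and 0.58 CPM in chow, 3.63, 6.08 and 5.07 with vehicle. OA mice read 6.22, 4.72 and 1.57 CPM and OA-NO2 mice 2.73, 0.62 and 1.33 CPM. Every vehicle mouse was above every chow and every OA-NO2 mouse. The vehicle level exceeded chow by 2.30 ± 0.58 (log2, edgeR adjusted p = 0.0170), a call lost without chow replicate 2, chow replicate 3 or vehicle replicate 2. Cyp1b1 did not pass the cutoff, applied before TMM scaling, in all chow mice. It was tested through groups where it was higher, so its call carries less weight. Of 8 stellate cell and fibroblast markers, 6 were called higher with vehicle, and their summed level was 322 to 399 CPM in chow, 595 to 1039 with vehicle, 422 to 1014 in OA and 359 to 573 in OA-NO2 mice, and no marker was at 0 in any library. Their part in the result for Cyp1b1 was not tested.

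Cyp2c70 makes muricholic acids, bile acids typical of mice. Its level was 101, 59.9 and 43.9 CPM in chow and 143, 126 and 134 with vehicle. It was 135, 182 and 135 CPM in OA mice and 78.2, 99.3 and 84.1 CPM in OA-NO2 mice. Vehicle and OA mice all lay above the chow and OA-NO2 mice. The rise over chow was 0.99 ± 0.25 (log2, edgeR adjusted p = 0.0165) and was lost without chow replicate 2. Cyp2c55, an arachidonic acid oxidase that inducers of CAR and PXR raise, went from 0.51 to 1.25 CPM in chow to 2.34 to 2.42 CPM with vehicle, higher by 1.77 ± 0.37 (edgeR adjusted p = 0.00802). With 8 reads in each chow mouse, Cyp2c55 did not pass the cutoff in all chow mice. It was tested through groups where it was higher, so its call carries less weight. Cyp2d12 was called higher as well, on 3 reads over the chow mice and 55 over the vehicle mice, too few for a fold change. It passed the filter on low counts through the vehicle mice, where it was high, so its call carries no weight beside the others.

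**Figure D2:**
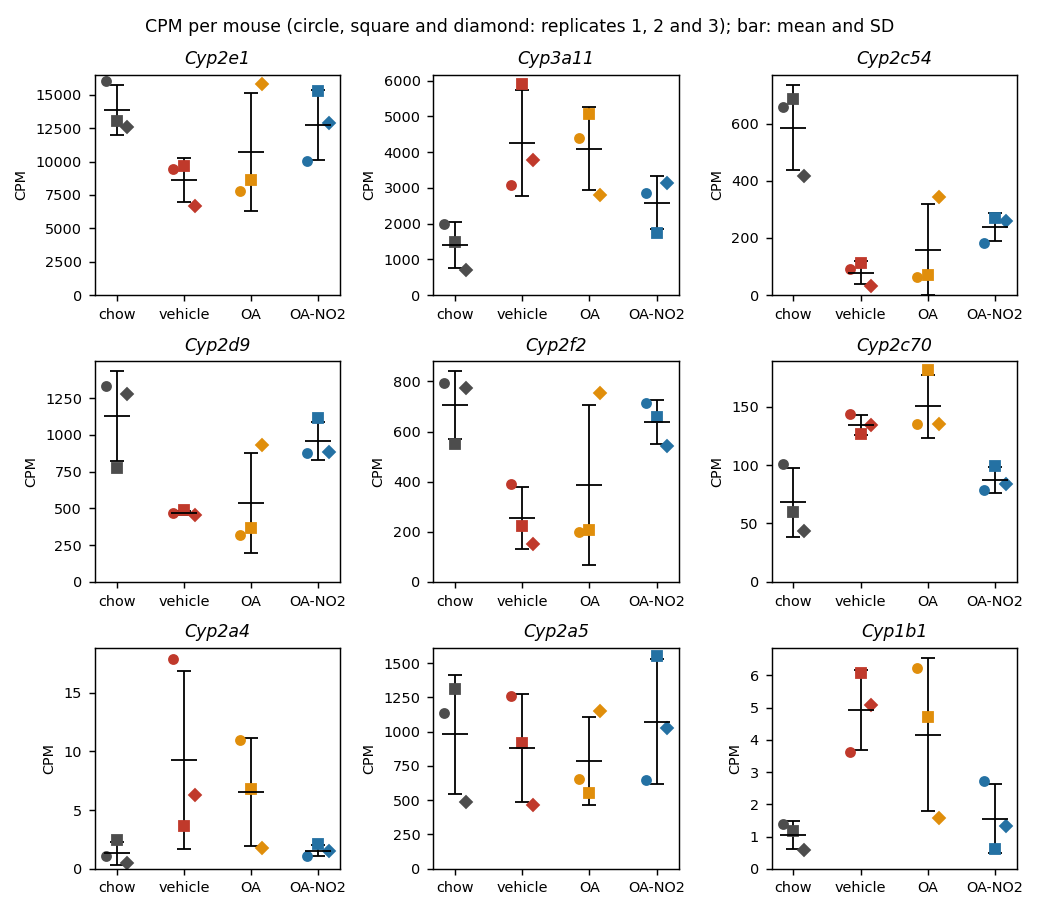
CPM of 9 members is plotted on linear axes from 0 for each mouse of the 4 groups, with the mean and SD as bars. OA replicate 3 (diamond) lies away from OA replicates 1 and 2 in Cyp2e1, Cyp2c54, Cyp2d9 and Cyp2f2, at 15805 CPM against 7799 and 8579 for Cyp2e1.

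The falls were led by Cyp2c genes that turn arachidonic acid into epoxides and hydroxy acids. Of 13 tested Cyp2c members, 8 were called lower and 2 higher with vehicle. Cyp2c54 stood at 657, 686 and 415 CPM in chow and 91.5, 111 and 32.9 with vehicle. In OA mice it was 64.1, 68.6 and 344 CPM and in OA-NO2 mice 182, 269.5 and 261 CPM. Every mouse on the NASH diet lay below every chow mouse, with OA replicate 3 the nearest to them, and the OA-NO2 mice lay above the vehicle mice. The fall with vehicle was -2.90 ± 0.60 on the log2 scale (edgeR adjusted p = 0.00745). Its call was kept under every alternative tried, as were those of Cyp2c40, Cyp2j5 and Cyp2c55. Of these, only Cyp2c54 and Cyp2j5 passed the cutoff in all mice of all 4 groups. Cyp2c40, which hydroxylates arachidonic acid, read 1.40, 3.65 and 3.39 CPM in chow and 0.42, 0.43 and 0.46 with vehicle, with -2.71 ± 0.52 (edgeR adjusted p = 0.0050). All vehicle mice were under the cutoff of 0.573 CPM for Cyp2c40. It was tested through groups where it was higher, so its call carries less weight.

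Cyp2c37 and Cyp2c50, epoxygenases of the same cluster, fell by 1.82 ± 0.52 and 1.41 ± 0.36 (edgeR adjusted p = 0.0279 and 0.0183). Cyp2c37 had 423 to 646 CPM in chow and 64.7 to 235 with vehicle. For Cyp2c50 the ranges were 807 to 1288 CPM and 244 to 492 CPM. Cyp2c23, an arachidonic acid epoxygenase also known from kidney, stood at 335, 256 and 347 CPM in chow and 117, 140 and 94.5 with vehicle. Its difference was -1.42 ± 0.33 (edgeR adjusted p = 0.0122), a call lost without vehicle replicate 3. The call of Cyp2c50 was lost without chow replicate 2 or vehicle replicate 3, and that of Cyp2c37 without chow replicate 1, chow replicate 2, vehicle replicate 2 or vehicle replicate 3.

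Smaller falls were seen in Cyp2c68 (-0.98 ± 0.19, edgeR adjusted p = 0.00599) and Cyp2c67 (-0.68 ± 0.15, edgeR adjusted p = 0.0101), with 162 to 227 and 221 to 258 CPM in chow and 76.8 to 128 and 138 to 170 CPM with vehicle. Both calls were lost with library size alone. The near copy Cyp2c69 had 4, 24 and 29 reads in the chow mice, 4, 1 and 1 in the vehicle mice, 1, 0 and 2 in the OA mice, and 11, 11 and 6 in the OA-NO2 mice. It passed the cutoff in all mice of no group and was tested through single mice where it was high. In the fit of all mice it was called lower than chow (edgeR adjusted p = 0.00352). With only the vehicle and chow mice in the fit, Cyp2c69 did not pass the filter on low counts and was not tested. Its calls against chow, here and with OA, therefore carry no weight beside the others. Cyp2c29, an abundant epoxygenase that CAR induces, stood at 742, 840 and 624 CPM in chow and 432, 303 and 155 with vehicle. It was at 157, 389 and 867 CPM with OA and at 496, 798 and 446 CPM with OA-NO2. Vehicle mice lay below chow mice without overlap, but the difference of -1.31 ± 0.49 did not pass the test (edgeR adjusted p = 0.0779). It was called with no filter and with vehicle and chow alone in the fit, and over all alternatives the adjusted p ran from 0.0172 to 0.236.

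**Figure D3:**
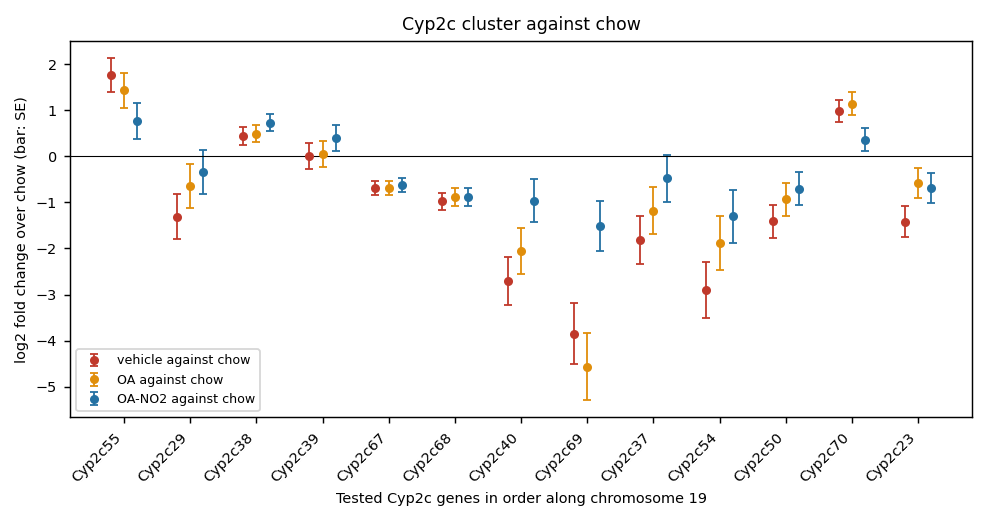
For the 13 tested Cyp2c genes, in their order along chromosome 19, points are fitted log2 fold changes over chow in each NASH diet group and bars their SE; the 3 comparisons share the chow mice. Cyp2c54 is at -2.90 with vehicle, and the point of Cyp2c69 with OA rests on 3 reads over the OA mice.

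Among Cyp2d genes, relatives of human CYP2D6, 4 of 6 tested members were called lower and Cyp2d12 higher. Cyp2d9, the male-biased testosterone 16-alpha-hydroxylase, stood at 1333, 773 and 1280 CPM in chow and 468, 486 and 457 with vehicle. OA mice had 317, 369 and 929 CPM, and OA-NO2 mice had 879.5, 1111 and 884 CPM. The vehicle mice lay close together and below all chow and OA-NO2 mice. Against chow the difference was -1.26 ± 0.34 (edgeR adjusted p = 0.0237), a call lost with library size alone and without any of 5 of the 6 mice. The other falls were those of Cyp2d10 (-0.84 ± 0.25), Cyp2d22 (-0.70 ± 0.20) and Cyp2d40 (-0.88 ± 0.27), which also lost their calls with library size alone and without any of 3 to 5 of the 6 mice.

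Cyp2f2, a naphthalene oxidase of periportal hepatocytes, stood at 792, 549 and 775 CPM in chow and 391.7, 225 and 150 with vehicle. With OA it was at 200, 206 and 754 CPM, and with OA-NO2 at 713, 660 and 540 CPM. All vehicle mice were below all chow and OA-NO2 mice, and the OA mice were split, with replicate 3 among the chow values. The fall with vehicle was -1.46 ± 0.46 (edgeR adjusted p = 0.0415), lost with library size alone, with DESeq2 and without any of 5 of the 6 mice. Periportal markers fell beside it: 6 of 8 were called lower, among them Cps1 of the urea cycle (-1.62) and Hal, which breaks down histidine (-2.04), and their sum was 11425 to 14649 CPM in chow and 3888 to 7322 with vehicle. The part of a shift in zonation in the result was not tested.

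Cyp2e1 and Cyp1a2, both known from the zone around the central vein, were not called. Cyp2e1 stood at 16029, 13013 and 12551 CPM in chow and 9416, 9681 and 6689 with vehicle. OA mice had 7799, 8579 and 15805 CPM, and OA-NO2 mice 10033, 15307 and 12914 CPM. The vehicle mice lay below all chow mice, yet the difference of -0.69 ± 0.29 did not pass (edgeR adjusted p = 0.112). Over all alternatives the difference in Cyp2e1 ran from -0.78 to -0.16. As a plain share of counts, without TMM scaling, Cyp2e1 overlapped, at 1.03% to 1.21% in chow and 0.768% to 1.14% with vehicle. Cyp1a2, the caffeine demethylase and a target of the aryl hydrocarbon receptor, had 277, 260 and 186 CPM in chow and 261, 169 and 165 with vehicle. With OA it had 124, 121 and 327 CPM, and with OA-NO2 178, 244 and 152 CPM. Its groups overlapped, with a difference of -0.28 ± 0.35 for vehicle against chow (edgeR adjusted p = 0.606) that turned positive with library size alone (0.24). Of 8 perivenous markers, glutamine synthetase (Glul, 1.04) and the ammonia transporter Rhbg were called higher and Oat lower; Rhbg lost its call without any of 3 mice and Oat without any of 5 and with other scalings.

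Cyp2b10, the classic CAR target, was near the limit of detection, at 1.25, 1.31 and 0.26 CPM in chow, 1.12, 1.07 and 0 in vehicle, 1.07, 0.82 and 0.90 in OA, and 0.51, 0.83 and 0.30 in OA-NO2 mice. No difference was detectable at this depth (vehicle against chow -0.32 ± 0.85, edgeR adjusted p = 0.820). The female-biased Cyp2b9 was uneven within groups, at 14.1, 16.3 and 1.39 CPM with vehicle and 2.65, 24.0 and 2.53 with OA, and was not called. Cyp2j5, an arachidonic acid epoxygenase of liver and kidney, fell from 670 to 1075 CPM in chow to 367 to 426 CPM with vehicle (-1.13 ± 0.25, edgeR adjusted p = 0.00972). The vitamin D 25-hydroxylase Cyp2r1 (9.51 to 11.1 CPM in chow, 6.90 to 9.89 with vehicle) and the fatty acid hydroxylase Cyp2u1 (22.1 to 23.8 and 15.3 to 25.7) were not called.

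Further members were not called in any comparison by edgeR with all 12 libraries, TMM scaling and the filter on low counts. Cyp2a12, a bile acid hydroxylase, stood at 612 to 767 CPM in chow, 407 to 774.5 with vehicle, 573 to 919.98 in OA and 716 to 864 in OA-NO2 mice, and all groups overlapped. Cyp2a22, 97.0% identical to it in coding sequence, read 7.88 to 28.3 CPM in chow, 22.1 to 66.9 with vehicle, 28.4 to 37.8 in OA and 37.6 to 56.8 in OA-NO2 mice. All OA-NO2 mice lay above all chow mice for Cyp2a22, with a difference of 1.43 ± 0.42 (log2, edgeR adjusted p = 0.116). Cyp2a22 was called higher with vehicle than in chow with library size alone, with no filter, with DESeq2, and without chow replicate 2 or vehicle replicate 3. It was also called against chow with library size alone for OA, and with library size alone, no filter or DESeq2 for OA-NO2. Cyp2d26 was at 796 to 1341 CPM in chow and 526 to 841 with vehicle (-0.71 ± 0.30, edgeR adjusted p = 0.121). Cyp3a25 was at 697 to 1206 CPM in chow and 404 to 801 with vehicle, and its near copy Cyp3a59 at 28.1 to 52.9 and 27.4 to 57.2 CPM; the latter was called higher with vehicle with library size alone. Cyp2c39, a retinoic acid hydroxylase, ranged between 4.35 and 10.3 CPM in all 12 mice.

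The genes that work with or control the family were counted in the same comparison. Of 7 electron donors and membrane partners, the epoxide hydrolase Ephx2, which opens the epoxides made by Cyp2c and Cyp2j enzymes, was called lower (-1.15 ± 0.24, edgeR adjusted p = 0.00692) and none higher, and Por was not called (-0.48 ± 0.25). Of 16 tested receptors upstream of P450 genes, 3 were called lower (Esr1, Hnf4a and Nr1h4) and none higher; Nr1i2, which encodes PXR, was not called (-0.58 ± 0.20, edgeR adjusted p = 0.0600). All 3 receptor calls were lost with library size alone, where Hnf4a was at -0.09 and Nr1h4 at -0.08, and each was lost without any of 4 of the 6 mice. In the haem list of 14, Alas1, the rate-limiting enzyme of haem synthesis, was called lower (-0.79 ± 0.25) and the exporter Flvcr1 higher. Alas1 lost its call with library size alone (-0.27) and without any of 5 of the 6 mice, and Flvcr1 lost its own without any of 4 mice and with vehicle and chow alone in the fit. Of 11 genes of growth hormone signalling, Igf1, Igfals and Ghr were called lower and none higher. Igfals and Ghr lost their calls with library size alone and without any of 4 of the 6 mice, and Igf1 without vehicle replicate 3. Of 12 male-biased genes outside the family, 10 were called lower and none higher, with a median of -2.26. A change between male and female patterns cannot be read from these genes alone.

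Markers of other cells moved in the same mice. With vehicle, 6 of 8 macrophage, 5 of 6 cholangiocyte and 2 of 6 lymphocyte markers were called higher and none lower, none of 6 endothelial markers was called, and 3 of 7 hepatocyte markers, led by Alb (-1.39), were called lower. Summed macrophage markers ran from 213 to 465 CPM in chow, from 701 to 951 with vehicle, from 630.4 to 1169 in OA and from 527 to 563 in OA-NO2 mice. The share of other cells in the falls of the members was not tested. Among the markers, Cftr was at 0 in 3 libraries, Cd3e in 2, and Cd8a and Nkg7 in 1 each.

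OA was then compared with vehicle, to see what the unmodified fatty acid did on the same diet. No member was called by edgeR, and 0% of all tested genes were. At an unadjusted p under 0.05 there were 2 of 41 members (Cyp3a13 and Cyp2c23) and 3.9% of all genes, and DESeq2 called 0 members and 0% of genes. The median over members was 0.10 (log2), against 0.00 over all genes. The members with the lowest p were Cyp3a13 (0.61 ± 0.23), Cyp2c23 (0.84 ± 0.33) and Cyp2c54 (1.02 ± 0.57), each with an edgeR adjusted p of 0.975. The value of Cyp2c54 rested on OA replicate 3 and was -0.27 without it. Cyp2c23 stood at 145, 129 and 355 CPM in OA replicates 1, 2 and 3, against 94.5 to 140 CPM with vehicle. Over its alternatives the value of Cyp2c23 ran from 0.20 to 1.10.

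OA-NO2 was compared with vehicle in the same way. No member passed edgeR's test, where 0.0207% of all genes did. Members at an unadjusted p under 0.05 numbered 17 of 41, against 15.8% of all genes, and DESeq2 called 0 members and 2.01% of genes. Of the 41 members, 30 lay above and 11 below the vehicle level, with a median of 0.33 (log2) against 0.02 over all genes. For 14 members every OA-NO2 mouse was above every vehicle mouse, as for 9.18% of all genes, and for 4 members every OA-NO2 mouse was below, as for 10.5%. Those 4 were Cyp2a4, Cyp1b1, Cyp2c55 and Cyp2c70, and the 14 included Cyp2c54, Cyp2d9, Cyp2f2, Cyp2e1 and Cyp2j5. Vehicle mice enter both this comparison and the one with chow, so the opposite signs of the 2 differences are no independent result.

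The lowest p between OA-NO2 and vehicle was that of Cyp2a4 (-2.57 ± 0.69, edgeR adjusted p = 0.159). It was called only without a filter on low counts (adjusted p = 0.0339); over its alternatives the adjusted p ran from 0.0339 to 0.448. Cyp2c40 (1.75 ± 0.52) and Cyp2c69 (2.33 ± 0.69) followed, both with an edgeR adjusted p of 0.171. Neither reached the cutoff of 0.573 CPM in any vehicle mouse, so both were tested through mice where they were higher. Cyp2c40 read 1.29, 1.55 and 1.63 CPM with OA-NO2, above all vehicle mice. Male-biased genes outside the family showed 9 of 12 with OA-NO2 above vehicle without overlap, against 9.18% of all genes, and 0 called. The same vehicle mice enter the falls of these genes against chow, so the 2 differences are not independent. No gene of the lists named above was called in the comparisons among NASH diet groups.

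OA and OA-NO2 differ by the nitro group and were given at the same dose for the same time. Between OA-NO2 and OA, edgeR called 0 members and 0.00691% of genes, and DESeq2 0 members and 0.327% of genes. At an unadjusted p under 0.05 there were 10 of 41 members, against 12% of all genes, and the median was 0.16 (log2) against 0.00. For those 10 the 95% interval excluded 0, above it for 6 and below it for 4. The half-width of the intervals ran from 0.33 to 2.16 with a median of 0.74. These intervals are not adjusted for the number of genes, whereas a call asks for an adjusted p. None of the 10 members was called, so a change had to be larger than its half-width to be called. The members with the lowest p were Cyp2c69, with 28 reads over the OA-NO2 mice and 3 over the OA mice (edgeR adjusted p = 0.313), Cyp2c70 (-0.79 ± 0.24, edgeR adjusted p = 0.321) and Cyp2a4 (-2.07 ± 0.69, edgeR adjusted p = 0.340). Cyp2c69 did not reach the cutoff in any OA mouse and was tested through mice where it was higher.

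For Cyp2e1 the difference between OA-NO2 and OA was 0.25 with an interval from -0.37 to 0.87, and for Cyp3a11 it was -0.67 with an interval from -1.48 to 0.14. Cyp1a2 differed by 0.01 (-0.74 to 0.76), Cyp2a5 by 0.45 (-0.49 to 1.40), Cyp2c29 by 0.30 (-0.74 to 1.34) and Cyp2b10 by -0.74 (-2.52 to 1.03). The narrowest interval was that of Cyp2c67 (-0.26 to 0.39). Cyp2d9 was 0.83 higher with OA-NO2 (0.10 to 1.57) and Cyp2f2 0.72 higher (-0.26 to 1.70), and both were called without OA replicate 3, the mouse at 929 and 754 CPM, but not with it.

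**Figure D4:**
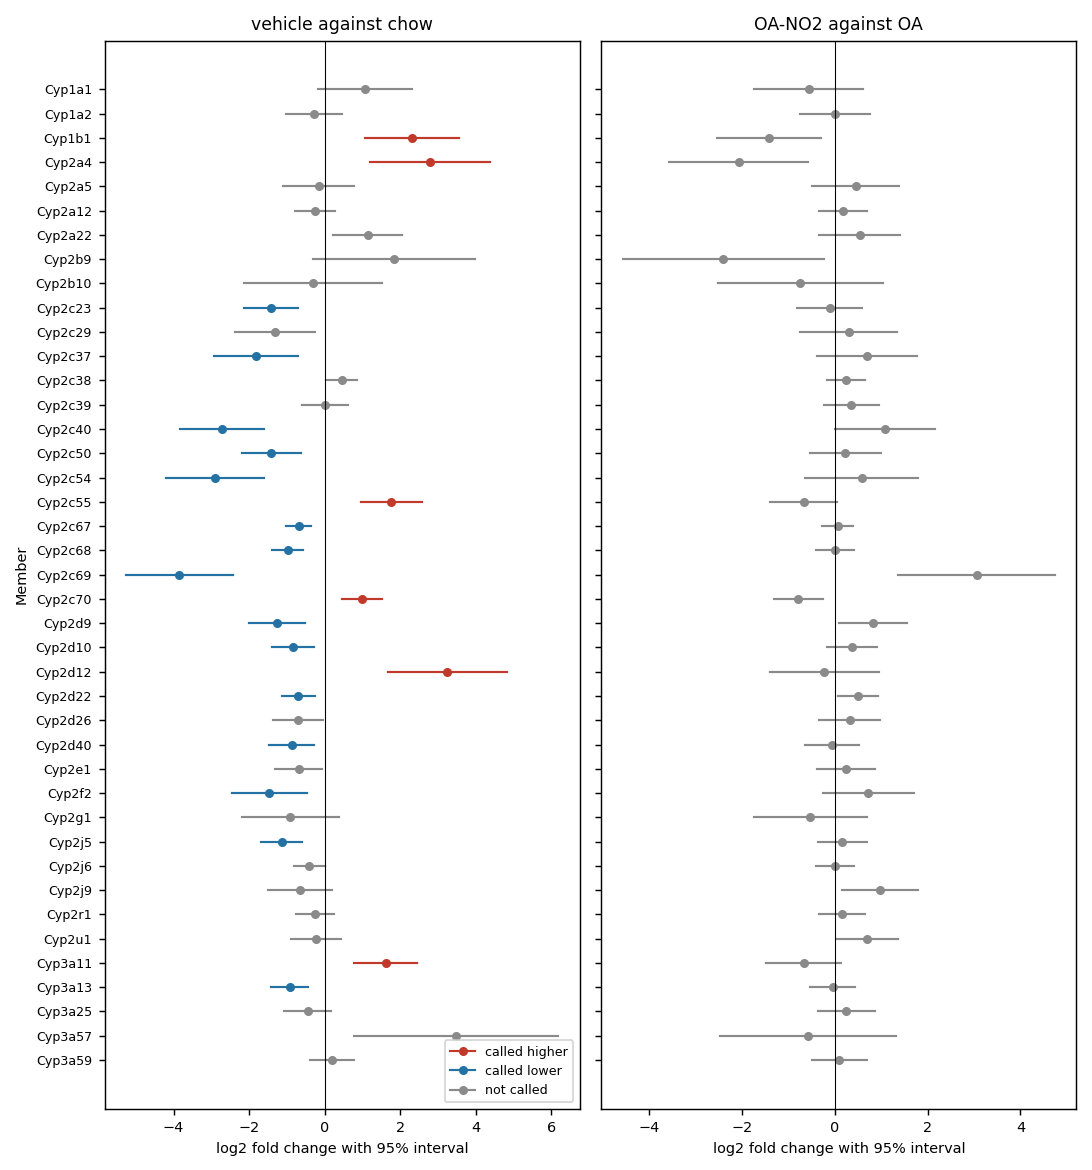
Points are log2 fold changes of the 41 tested members for vehicle against chow (left) and OA-NO2 against OA (right), and lines their 95% intervals from edgeR, on axes of their own. On the left 6 members are called higher (red) and 15 lower (blue); on the right no member is called, and the intervals of Cyp2d12 and Cyp3a57 (left) and Cyp2c69 (right) rest on 2 or 3 reads in a group.

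Both fatty acid groups were also set against chow, which they share with the vehicle comparison. With OA, 4 members were called higher, against 6.33% of all genes, and 4 lower, against 2.23%, with 8 higher and 3 lower under library size alone, where the median of all genes was 0.42. The rises were Cyp1b1 (2.07 ± 0.58), Cyp3a11 (1.56 ± 0.38), Cyp2c55 (1.44 ± 0.38) and Cyp2c70 (1.15 ± 0.25). The falls were Cyp2c40 (-2.05 ± 0.50), Cyp2c68 (-0.89 ± 0.19), Cyp2c67 (-0.69 ± 0.15) and Cyp2c69, with 3 reads over the OA mice and 57 over the chow mice. Their edgeR adjusted p lay between 0.00457 and 0.0435. Cyp1b1 and Cyp2c55 did not pass the cutoff in all chow mice, nor Cyp2c40 in all OA mice. These calls therefore carry less weight. Without OA replicate 3 the count rose from 8 to 21, 5 higher and 16 lower, and among the members gained were Cyp2c54, Cyp2c37, Cyp2d9, Cyp2f2 and Cyp2j5; with OA and chow alone in the fit it was 2.

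With OA-NO2 no member was called against chow by edgeR, where 0.684% of genes were. There were 9 members at an unadjusted p under 0.05, against 18.8% of genes, and DESeq2 called 4 members (Cyp2a22, Cyp2c38, Cyp2c67 and Cyp2c68), against 5.08% of genes. The lowest p were those of Cyp2c68 (-0.87 ± 0.19, edgeR adjusted p = 0.0535), Cyp2c67 (-0.62 ± 0.15, edgeR adjusted p = 0.0721) and Cyp2c38 (0.73 ± 0.19, edgeR adjusted p = 0.0869). Cyp2c68 read 93.7, 109 and 116 CPM and Cyp2c67 160, 146 and 166 CPM, below the chow mice in all OA-NO2 mice. For these neighbours the 3 NASH diet groups stood close together, at -0.98, -0.89 and -0.87 against chow for Cyp2c68 (vehicle, OA and OA-NO2), and at -0.68, -0.69 and -0.62 for Cyp2c67. For Cyp2c54 the same 3 values were -2.90, -1.88 and -1.30, and for Cyp3a11 1.61, 1.56 and 0.89; differences between these were those tested above, and none was called.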

How the data were processed

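Libraries were made from liver RNA of 12 mice with a KAPA mRNA kit and read as 76-base pairs, per the labels' protocols. Per the submitters' processing notes, Trimmomatic 0.35, HISAT2 2.1.0, SAMtools 1.2 and HTSeq were used on GRCm38. The sources used here give no annotation release, strand setting, gene filter or rule for reads that map to several places. The authors deposited raw counts per gene, not normalised. Symbols were found for 24936 identifiers (47 had none), and 0 columns were unmapped. Of 58 family symbols in GENCODE M21, 6 had no entry in the table and were not analysed here. Another 9 genes with related names (pseudogenes, Cyp3a41a and the like, 5250 reads in all) fell outside the naming rule.

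Mice were told apart by ear tags, replicate numbers follow accession order, and no pair of libraries was a duplicate (chi-square over degrees of freedom at least 24.3). All 12 libraries entered 1 edgeR 4.0.16 quasi-likelihood fit (R 4.3.3) after the default filter (minimum count 10, total 15) and TMM scaling, with Benjamini-Hochberg adjustment over 14469 genes. SE is the log2 fold change over the square root of F. No fold change is printed where a group has 4 or fewer reads. Alternatives were other scalings, no filter, DESeq2 1.42.0, a fit of the compared groups alone, and leaving out each mouse. The script was tested on simulated data. Members and lists were chosen with earlier results of these data known.

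Full statistics are given for called members with a mean of at least 1 CPM, up to 10 per direction, for the 3 members of lowest p where none was called, and for 8 prototypes (Cyp1a2, Cyp2a5, Cyp2b10, Cyp2c29, Cyp2d9, Cyp2e1, Cyp2f2 and Cyp3a11). From the gene lists only examples among the lowest p are named, and the list of female-biased genes is not reported here. Other members named were chosen after their values were seen. Coding windows came from GENCODE M21 and promoters from RefSeq on GRCm38.p6.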

Additional observations from a re-analysis of the deposited data

How the results depend on the processing

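No paired analysis was possible because the replicate numbers only follow accession order and no label ties a mouse of 1 group to a mouse of another. Of the 21 calls between vehicle and chow, 5 were kept under every alternative (1 of them Cyp2d12, on 3 chow reads) and 8 were lost with library size alone. Of the 5, only Cyp2c54 and Cyp2j5 passed the cutoff in all mice of all 4 groups. Leaving out 1 mouse gave 13 to 18 calls, with 13 without chow replicate 1, vehicle replicate 2 or vehicle replicate 3, and the latter left 7 higher and 6 lower. The comparison of OA and vehicle gave 0 calls throughout. For OA-NO2 against vehicle, 1 member (Cyp2a4) was called with no filter. For OA-NO2 against OA, leaving out 1 mouse gave 0 to 2. For OA against chow it gave 1 to 21, with 5 calls without chow replicate 1, 4 without chow replicate 3 or OA replicate 1, and 1 without chow replicate 2 or OA replicate 2, and fitting those groups alone gave 2. For OA-NO2 against chow, library size alone and no filter gave 2 each and DESeq2 gave 4. The cause of these changes in the number of calls was not tested.

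The sign of some values turned. Between vehicle and chow, library size alone gave 0.24 for Cyp1a2, 0.37 for Cyp2a5, 0.19 for Cyp2b10, 0.0357 for Por, 0.0916 for Cyb5a, 0.16 for Hmox2 and 0.0214 for Clec4g. Leaving out 1 mouse gave -0.50 to 0.15 for Cyp2a5 (above 0 without chow replicate 2 or vehicle replicate 3), -0.84 to 0.29 for Cyp2b10 (above 0 without the same mice) and -0.0792 to 0.19 for Cdh5 (below 0 without chow replicate 1 or vehicle replicate 3). For OA against vehicle, Cyp2c54 ran from -0.27, without OA replicate 3, to 1.39. Between OA-NO2 and OA, Cyp1a2 was at -0.0372 with library size alone and -0.0153 with no filter. Leaving out 1 mouse gave -0.24 to 0.66 for Cyp1a2 (below 0 without OA replicate 1, OA replicate 2 or OA-NO2 replicate 2) and -0.12 to 1.10 for Cyp2c29 (below 0 without OA replicate 1 or OA-NO2 replicate 2). Members under 1 CPM rest on few reads, and chow replicate 1 is the shallowest library.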
